A study of Mus musculus with 4 samples.

Results

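Typical dual-specificity MAP kinase phosphatases switch off MAP kinases by removing the phosphates from both the threonine and the tyrosine of their activation loop. A list of 10 genes of the family, the atypical Dusp3 and Dusp22 among them, was followed here: Dusp1, Dusp2, Dusp3, Dusp4, Dusp5, Dusp6, Dusp7, Dusp10, Dusp16 and Dusp22. Members were the non-control probes whose gene name in the scanner files equals one of these names, 13 of 41174 probes, which read 9 of the 10 genes, out of 27674 gene names on the array. No expression value of Dusp5 was analysed here. The cells were bone marrow immature granulocytes, precursors of neutrophils, sorted from male C57BL/6 mice. Either miR-223, a microRNA, had been knocked out (KO, 2 arrays) or the mice were wild type (WT, 2 arrays), and each sample was hybridised alone to a 1-colour whole-genome array. The labels give no age, no number of animals per sample and no statement that replicates came from different mice. The p-values therefore reflect variation among these 4 samples, part or all of which may be technical.

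MAP kinase signalling runs from surface receptors through RAS and a 3-step kinase cascade to ERK, JNK and p38, and in granulocytes and monocytes it carries growth factor, chemoattractant and microbial signals. The phosphatases fall into groups by place and substrate. Dusp1, Dusp2, Dusp4 and Dusp5 are nuclear and are induced quickly when cells are stimulated. Dusp6 and Dusp7 are cytoplasmic and prefer ERK, Dusp10 and Dusp16 act on JNK and p38, and Dusp3 and Dusp22 are small atypical members without the MAP kinase-binding domain. miR-223 is abundant in myeloid cells and lowers transcripts that pair with its seed, so the comparison asks which phosphatase transcripts differ in its absence.

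The first sequence below is the 3p arm, 1 of the 2 mature products of the deleted miRNA gene and the one whose seed was searched (RefSeq, GRCm38.p6, chrX:96242884-96242905, plus strand), with its seed, bases 2 to 8, in capitals. The line after it is a stretch of the Dusp2 probe as deposited (mm9, chr2:127163960-127163989, plus strand, bases 31 to 60 of the 60-base probe). Its capitals mark the complement of that seed followed by an A, the 8mer match AACTGACA, at bases 45 to 52 of the probe. It is shown because Dusp2 was the only member whose probe held the match or its 6-base core ACTGAC.
mmu-miR-223-3p: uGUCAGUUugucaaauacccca
Dusp2 probe stretch: agttatttgtgttcAACTGACAtttaacgc
The 8mer was found in 56 of 41174 probes, or 0.136%, and 34 of these were among the probes tested. A match in a probe is a description of its letters, and whether miR-223 binds there was not tested.

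All values below come from the scanner's processed signal, and a relative signal is that signal divided by the 75th percentile of its array. All 4 arrays shared 1 slide and 1 scan. Between 59.6% and 62.9% of spots were well above background, 0 were saturated, and the 75th percentile was 361 and 422 in KO and 314 and 310 in WT. The lowest relative signal that the software called well above background was 0.0144 to 0.0213 on KO arrays and 0.0199 to 0.0233 on WT arrays. Markers of neutrophil precursors stood well above background: the 10 of 12 listed genes found on the array summed to relative signals of 4394 to 5047 in KO and 4645 to 5047 in WT. Within that list the primary granule proteases of early precursors were higher in KO, Prtn3 at 0.72 ± 0.10 on the log2 scale, Ctsg at 0.63 ± 0.09 and Elane at 0.50 ± 0.10 (SE, n = 2 arrays per genotype, called with an intensity trend in limma's prior variance, not without it), whereas Ltf was at -0.44 ± 0.24 and Mpo at 0.05 ± 0.13. The rest of the list went both ways. Mmp8 was at 0.55 ± 0.28, Lcn2 at 0.13 ± 0.17, Ngp at -0.04 ± 0.10, Camp at -0.05 ± 0.13 and Chil3 at -0.18 ± 0.10. Of the 10 genes, 6 were higher and 4 lower in KO. The part of these markers in the phosphatase values was not tested.

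Dusp1 and both probes of Dusp22 were the members with the widest separation between genotypes, Dusp2, Dusp3 and Dusp10 were higher in KO by smaller amounts, and Dusp6 and Dusp7 had nearly equal means. No member passed the test: across 25749 probes, those flagged well above background on 2 or more arrays, limma gave 0 probes at an adjusted p under 0.05 in either direction (0.0% called higher, 0.0% called lower), and the smallest adjusted p among members was 0.0987. At an unadjusted p under 0.05, 3 of the 10 tested member probes were higher in KO (Dusp1 and the 2 Dusp22 probes) and 0 were lower, against 11.1% and 13.6% of all tested probes. Of the 10, 7 had both KO arrays above both WT arrays (26.3% of all tested probes), 0 had both below (32.8%) and 3 overlapped, but Dusp16 probe 1 entered only through its KO signal. Of the 8 member probes well above background on all 4 arrays, 6 had both KO arrays above both WT arrays and 2 overlapped, against 26.6% of all such probes with both KO arrays above. The Dusp22 probes read the same gene and are not independent of each other.

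**Figure D1:**
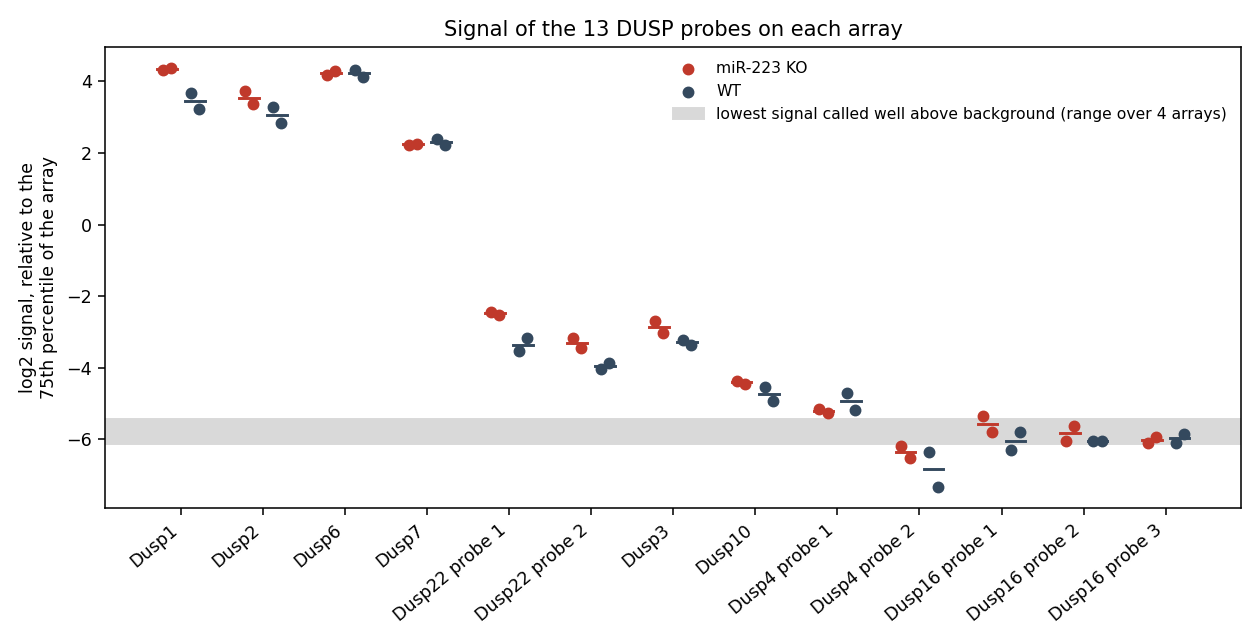
Log2 signal of each DUSP probe relative to the 75th percentile of its array (vertical axis), for 2 miR-223 KO arrays (red, left of each pair) and 2 WT arrays (dark, right); points are arrays, short lines are group means, and the grey band spans the lowest signals called well above background. The KO points lie clear of the WT points for Dusp1 and both Dusp22 probes, overlap them for Dusp6 and Dusp7, and lie near, in or below the band, as the WT points do, for Dusp4 and Dusp16.

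Among the inducible nuclear phosphatases, Dusp1 acts on p38, JNK and ERK and limits inflammatory signalling in myeloid cells. Its relative signal was 19.8 and 20.6 in KO, against 12.9 and 9.46 in WT. The KO arrays agreed closely, and both lay above both WT arrays, which differed more from each other. The log2 difference (KO minus WT) was 0.87 ± 0.18 (SE, n = 2 arrays per genotype), a 1.83-fold higher mean in KO, with an adjusted p of 0.111 over all tested probes. It stayed positive in all 15 alternative settings (0.65 to 1.31), and with an intensity trend in limma's prior variance its adjusted p was 0.0200. Settings that changed only the probe filter, the model or the arrays included could not turn the sign, because the genotypes did not overlap. The files place the probe on mm9 chromosome 17, minus strand, with coordinates that cover only 11 bases, 26642526 to 26642536. They do not state why, and they assign the probe to transcript NM_013642.

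Dusp2, first described in activated lymphocytes and a regulator of ERK, had relative signals of 13.2 and 10.3 in KO and of 9.75 and 7.12 in WT. KO replicate 2 and WT replicate 1 were close, so the genotypes were separated by only 0.08 on the log2 scale. The log2 difference was 0.49 ± 0.22 (SE, n = 2 arrays per genotype, adjusted p = 0.271), and it was 0.26 without WT replicate 2, 0.30 without KO replicate 1, 0.67 without KO replicate 2 and 0.71 without WT replicate 1. With an intensity trend the adjusted p was 0.128. Of the 34 tested probes that hold the 8mer shown above, 22 were higher and 12 lower in KO, with a median of 0.30, and 10 had a larger difference than Dusp2. Over all tested probes 45.3% were higher and the median was -0.03. Shorter matches had smaller medians: 0.08 over the 99 tested probes with AACTGAC (57 higher, 42 lower), 0.09 over the 123 with ACTGACA (73 higher, 50 lower) and 0.05 over the 379 with ACTGAC (215 higher, 164 lower), and each of these sets includes the longer matches. No unrelated sequence was counted beside them, and the part of the matches in these differences was not tested. A further probe, named only by a cluster ID (TC1634227) but described in the files as a partial Dusp2 cDNA, lies 1288 bases upstream of the Dusp2 probe (mm9 chromosome 2, 127162582 to 127162641). It was added after its values were seen: relative signals were 1.16 and 0.754 in KO and 0.744 and 0.512 in WT, with no overlap, and the log2 difference was 0.60 ± 0.30 (SE, n = 2 arrays per genotype, adjusted p = 0.304).

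Dusp4, the third nuclear member with a probe, was at the edge of detection. Probe 1 (mm9 chromosome 8, 35884806 to 35884865) was well above background on 1 KO and 1 WT array, with relative signals of 0.0280 and 0.0260 in KO and 0.0387 and 0.0276 in WT. The genotypes overlapped, and the log2 difference was -0.28 ± 0.19 (SE, n = 2 arrays per genotype, adjusted p = 0.432). It was -0.03 without WT replicate 1 and -0.52 without WT replicate 2. Probe 2 (35882045 to 35882104), which carries the RefSeq transcript NM_176933, was not well above background on any array, so no difference is given.

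The cytoplasmic ERK phosphatases had almost the same signal in both genotypes. Dusp6, which ERK itself induces as negative feedback, had relative signals of 18.1 and 19.5 in KO, against 20.0 and 17.5 in WT (mm9 chromosome 10, 98729985 to 98730044). The KO arrays lay between the WT arrays, and the log2 difference was 0.00 ± 0.11 (SE, n = 2 arrays per genotype, adjusted p = 0.982). Dusp7, its close relative, had 4.68 and 4.78 in KO and 5.28 and 4.69 in WT (mm9 chromosome 9, 106277697 to 106277756). Here too the groups overlapped, and KO minus WT was -0.07 ± 0.10 on the log2 scale (SE, n = 2 arrays per genotype, adjusted p = 0.692).

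A ratio of 2 probes on the same array does not depend on how arrays are scaled to each other, although its absolute size also depends on the probes. The log2 ratio of Dusp1 to Dusp6 was 0.13 and 0.08 in KO, against -0.63 and -0.89 in WT, so both KO arrays lay above both WT arrays and the genotype means differed by 0.87. Dusp1 over Dusp7 was 2.08 and 2.11 in KO and 1.29 and 1.01 in WT, a difference of 0.94. Dusp2 over Dusp6 was less separated, at -0.45 and -0.92 in KO and -1.03 and -1.30 in WT, and Dusp2 over Dusp7 differed by 0.56. Dusp1 over Dusp2 also differed, by 0.39, and Dusp6 over Dusp7 by 0.08, close to the spread between arrays. These 6 ratios were chosen after the values were seen. In all 6 the genotypes did not overlap, and the two-sided exact permutation p was 0.333 for each, raw and Benjamini-Hochberg adjusted, the smallest that 2 against 2 arrays allow. The ratios share probes and are not independent. Lack of overlap was common: 26.3% of all tested probes had both KO arrays above both WT arrays, and 32.8% had both below.

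**Figure D2:**
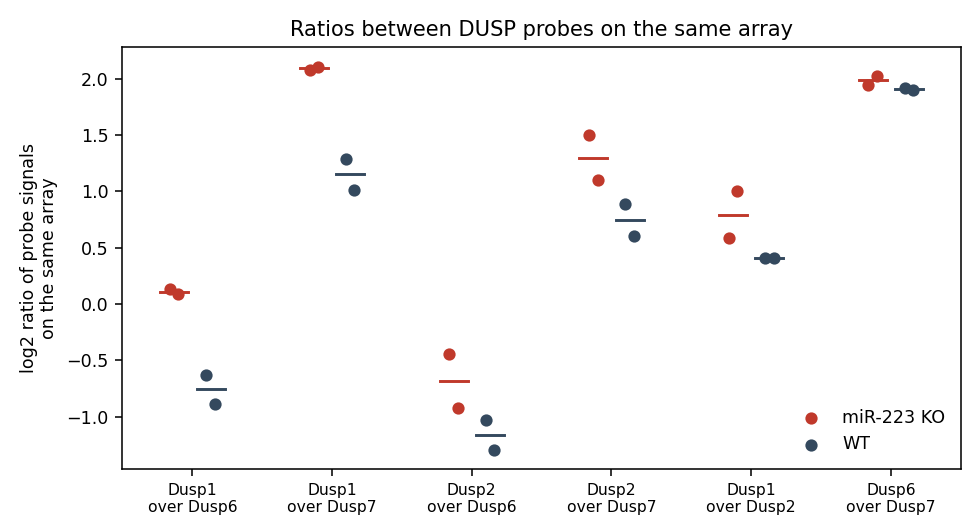
Log2 ratio of probe signals on the same array (vertical axis) for 6 pairs of bright DUSP probes, in miR-223 KO (red, left) and WT (dark, right); points are arrays and short lines are group means. The ratios of Dusp1 to Dusp6 and to Dusp7 stand 0.87 and 0.94 higher in KO, whereas that of Dusp6 to Dusp7 differs by 0.08.

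Dusp10 and Dusp16, which act on JNK and p38, were dim. Dusp10 was well above background on all 4 arrays, with relative signals of 0.0486 and 0.0458 in KO and 0.0429 and 0.0328 in WT (mm9 chromosome 1, 185898608 to 185898667). The KO arrays were above both WT arrays by a narrow margin of 0.09 on the log2 scale, and the log2 difference was 0.33 ± 0.16 (SE, n = 2 arrays per genotype, adjusted p = 0.294). It was 0.14 without WT replicate 2 and 0.52 without WT replicate 1. Of the 3 Dusp16 probes, probe 1 (mm9 chromosome 6, 134668003 to 134668062) was well above background on both KO arrays and on neither WT array, and so entered the test only through KO. Its relative signals were 0.0247 and 0.0181 in KO and 0.0127 and 0.0181 in WT, with KO replicate 2 nearly equal to WT replicate 2. No difference or fold from the main setting is given in the text, because WT has only a bound there and the KO mean did not exceed it. That bound is the mean, over the 2 WT arrays, of the lowest log2 signal called well above background. Probes 2 and 3 were well above background on 0 arrays.

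The atypical members were dim as well, and Dusp22 was the more separated of the pair. Dusp22, known for acting on the JNK pathway and for restraining T cell receptor signalling, was read by 2 probes. Probe 1 (mm9 chromosome 13, 30802773 to 30802832) had relative signals of 0.184 and 0.175 in KO, against 0.0866 and 0.111 in WT. Probe 2, whose 60 bases span from 30788125 to 30797524 a distance of 9400 bases, had 0.111 and 0.0917 in KO, against 0.0608 and 0.0687 in WT. On both probes the KO arrays lay well above the WT arrays. The log2 differences were 0.87 ± 0.15 for probe 1 (SE, n = 2 arrays per genotype, adjusted p = 0.0987) and 0.64 ± 0.14 for probe 2 (adjusted p = 0.117), 1.83-fold and 1.56-fold higher means in KO. With an intensity trend the adjusted p-values were 0.0342 and 0.0987. Dusp3, a small phosphatase of ERK and JNK, had 0.156 and 0.122 in KO and 0.108 and 0.0972 in WT (mm9 chromosome 11, 101835523 to 101835582). Its genotypes did not overlap, and KO minus WT was 0.43 ± 0.16 on the log2 scale (SE, n = 2 arrays per genotype, adjusted p = 0.207). It was 0.26 without KO replicate 1.

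The values of the dim members depended on the background correction, while Dusp1 and Dusp2 kept their direction in every setting run. With normexp, a model-based correction that adds an offset of 50 before the log, fitted without control spots, Dusp1 was at 0.92 on the log2 scale (adjusted p = 0.00804) and Dusp2 at 0.51 (adjusted p = 0.0544). The raw processed signals of Dusp22 probe 1 were 66.6 and 73.7 in KO and 27.2 and 34.4 in WT, close to that offset, and its difference was 0.28 (adjusted p = 0.0878). Dusp22 probe 2 was then at 0.06 and Dusp3 at 0.04, while Dusp10 turned to -0.17. With control spots included in the fit, Dusp22 probes 1 and 2 turned to -0.48 and -0.78, Dusp3 to -0.67 and Dusp10 to -1.04, and Dusp7 turned to 0.37, with a shift of the median of all probes by -0.28. Without control spots 5.33% of all tested probes were called higher and 8.44% lower, and with the intensity trend 5.03% and 4.6%, so that 1 and 2 of the 10 member probes called higher stand against those shares.

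**Figure D3:**
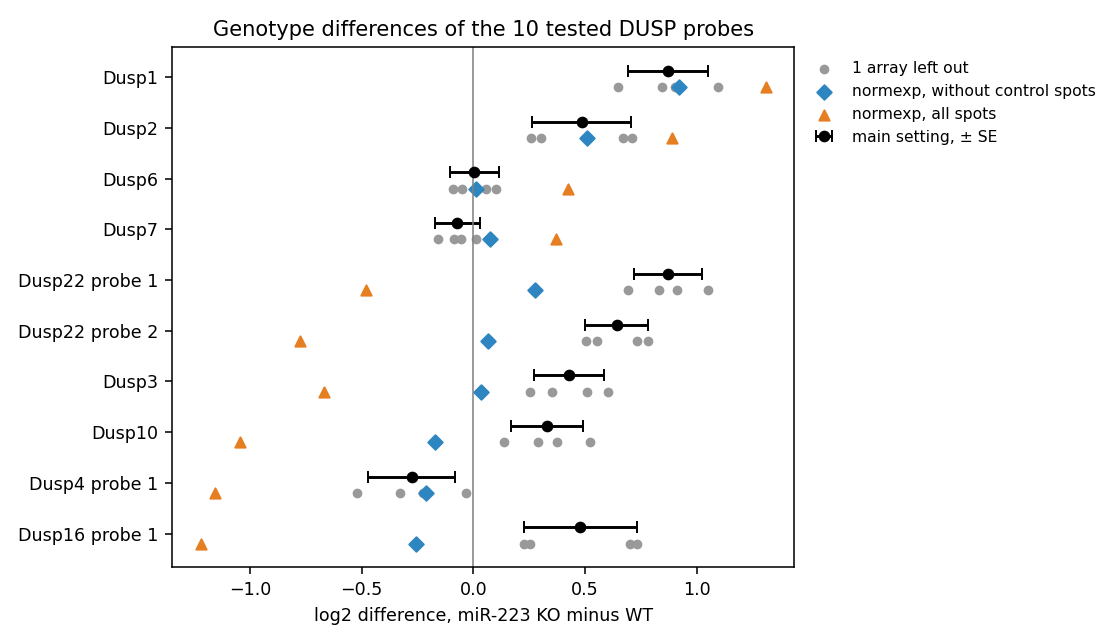
Log2 difference, miR-223 KO minus WT (horizontal axis), of the 10 tested DUSP probes: black points with bars are the main setting ± SE, grey points leave out 1 array each, and blue diamonds and orange triangles are normexp fitted without and with control spots. Dusp1 and Dusp2 stay above 0 throughout, Dusp6 and Dusp7 lie near 0 except for the triangles, and the dim probes move to lower values with normexp, other than Dusp4 probe 1 fitted without control spots; the values of Dusp16 probe 1 rest on WT signals not well above background.

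Across the 10 tested probes the median log2 difference was 0.45, beside -0.03 over all tested probes. These 10 include Dusp16 probe 1, which entered only through its KO signal. The median of the 10 was 0.27 without KO replicate 1 and 0.64 without KO replicate 2. The 8 probes well above background on all 4 arrays had a median of 0.46, beside -0.04 over all such probes. The pattern of Dusp22 probe 1, the member with the smallest p among these 8, was most closely followed by Capn2, a calcium-dependent protease (Euclidean distance 0.04 on the log2 scale over the 4 arrays, each probe centred on its mean), Tmem178 (0.08) and the C-type lectin receptor Cd302 (0.11), out of 11788 genes searched. Their log2 differences were 0.84, 0.87 and 0.80. With 4 arrays such closeness describes only the genotype difference and the spread within pairs.

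The genes around the phosphatases were read by their brightest tested probe, and 0 of 129 measured pathway genes passed over all probes. At an unadjusted p under 0.05, 29 were higher in KO and 12 lower, against 11.9% and 12.1% of all 16978 genes, and with the intensity trend 18 were called higher and 6 lower, against 5.88% and 4.56%. Zak and Ksr2 were not analysed here. The median of the 129 was -0.00, beside -0.02 over all genes.

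The MAP kinases, which include the substrates of the phosphatases, had a small median difference, though single genes differed more. Of 12 MAP kinases measured, 11 were lower and 1 higher in KO, with a median log2 difference of -0.11. Over all genes 47.6% were higher. Mapk7, the large kinase ERK5, was at -0.34 ± 0.09 (SE, n = 2 arrays per genotype) and the p38 isoform Mapk13 at -0.30 ± 0.09, both called with the trend (adjusted p = 0.0382 and 0.0471), and the related kinase Nlk was at 0.30 ± 0.10. The 7 kinases of the MAP2K tier, which activate the MAP kinases, had a median of 0.01, with Map2k4 at -0.17, Map2k7 at 0.15 and Map2k1 at -0.11. Of 19 MAP3K and RAF kinases, 8 were higher and 11 lower (median -0.03), with Map3k9 at -0.82, Map3k12 at 0.83 and Map3k8, which drives ERK downstream of Toll-like receptors, at 0.48. RAS and its regulators had a median of -0.08 over 19 genes, with the RAS GTPase-activating proteins Rasa2 at -0.56 and Rasa1 at 0.39 and the GTPase Rras2 at 1.18. The kinases activated by MAP kinases had a median of -0.01 over 10 genes, with Rps6ka5 at -0.41, Rps6ka4 at 0.25 and Rps6ka3 at -0.37. Scaffolds had one of -0.12 over 9 genes, with Mapk8ip3 at -0.28, Spag9 at 0.24 and Arrb2 at -0.29, and the scaffold median was -0.00506 without KO replicate 2.

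Immediate early genes, the transcription factors and regulators induced downstream of MAP kinases, had mostly higher values in KO. Of 20 measured, 18 were higher in KO, against 47.6% of all genes, and 2 lower, with a median of 0.54. At an unadjusted p under 0.05, 10 were higher and 1 lower, against 11.9% and 12.1% of all genes. With the trend 10 were called higher and 0 lower, against 5.88% and 4.56%. The 2 genes lower in KO were Fosl1 at -1.53, the largest difference of the list, and Nr4a1 at -0.04. Jun had relative signals of 5.97 and 6.27 in KO and 2.76 and 2.45 in WT (log2 difference 1.23 ± 0.10 SE), Egr1 differed by 0.90 ± 0.13 and Junb by 0.71 ± 0.09. Feedback inhibitors other than the phosphatases had a median of 0.23 over 10 genes, 7 higher and 3 lower, with the mRNA-destabilising protein Zfp36 at 0.58, the RAS pathway inhibitor Spred1 at 0.38 and the RAF inhibitor Pebp1 at 0.33. Their median rested on single arrays: it was 0.00341 without KO replicate 1, 0.10 without WT replicate 2 and 0.39 without KO replicate 2. Dusp1 is itself an immediate early gene, and its difference of 0.87 lay among those of Jun, Egr1 and Junb.

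Other phosphatases went both ways. Of 17 measured members of the wider dual-specificity family, 8 were higher and 9 lower (median -0.01, and 0.03 to 0.22 with any 1 array left out). At an unadjusted p under 0.05, 6 were higher and 0 lower, against 11.9% and 12.1% of all genes. With the trend 1 was called higher and 0 lower, against 5.88% and 4.56%. The cofilin phosphatases Ssh1 and Ssh3 were at 0.96 ± 0.11 and 0.52 ± 0.11 (SE, n = 2 arrays per genotype), and Dusp19 was at 0.52 ± 0.12. The 7 MAP kinase phosphatases of other families had a median of -0.10, with the metal-dependent phosphatases Ppm1d at -0.47 and Ppm1a at -0.28 and the leukocyte tyrosine phosphatase Ptpn7 at -0.14.

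**Figure D4:**
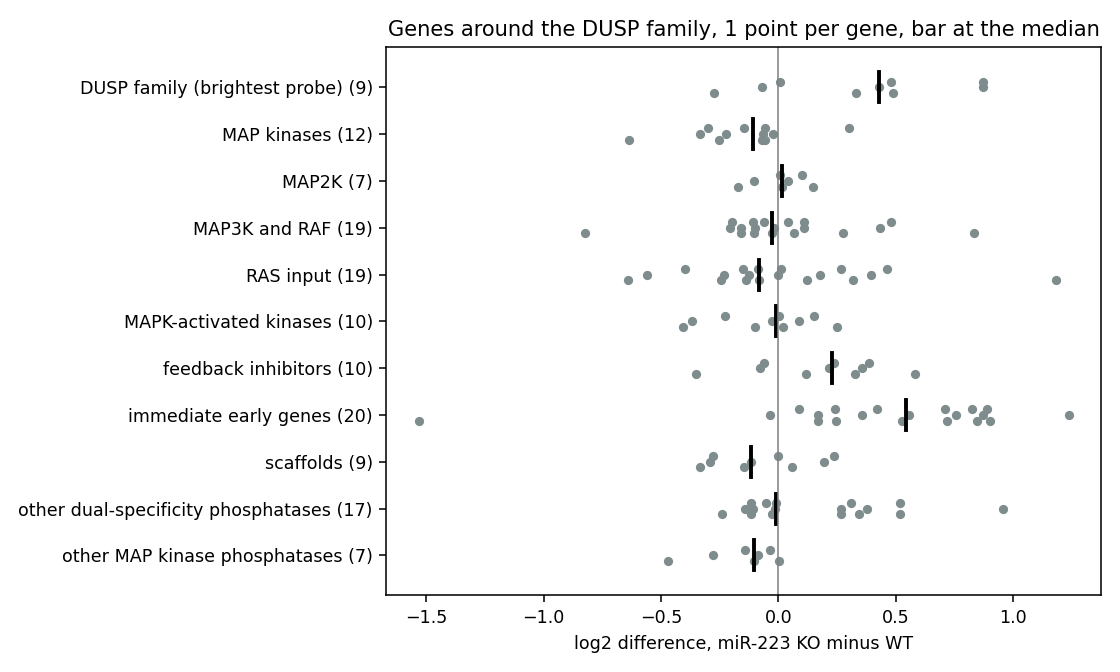
Log2 difference, miR-223 KO minus WT (horizontal axis), of each measured gene in the DUSP family and in 10 lists of the MAP kinase pathway, with 1 point per gene, a bar at the list median and the number of genes in brackets. Immediate early genes have the highest median, 0.54, and the MAP kinases, with a median of -0.11, have 1 of 12 genes above 0. The value of Dusp16 rests on WT signals not well above background.

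Markers of other cells and of handling differed in both directions. Of 12 monocyte and macrophage markers 11 were higher in KO, with summed relative signals of 86.9 to 99.6 in KO and 57.3 to 57.4 in WT. All 12 were well above background on 2 or more arrays. Eosinophil markers (5 of 6 higher) summed to 18.1 to 19.6 in KO and 11.2 to 13.02 in WT. Genes that respond to handling of cells (6 of 7 higher, among them Jun, Egr1 and Fos, which are also immediate early genes) summed to 113 to 115 in KO and 66.9 to 79.9 in WT, led by the chaperone Hspa1a at 1.69 ± 0.08. Stem and progenitor markers (4 of 5 higher) summed to 45.2 to 47.6 in KO and 30.4 to 34.3 in WT, megakaryocyte markers (3 of 3 higher) to 1.64 to 2.45 in KO and 0.854 to 0.978 in WT, and dendritic cell markers (4 of 6 higher) to 29.9 to 41.7 in KO and 23.1 to 27.1 in WT. Erythroid markers went the other way (0 of 3 higher, median -0.61), summing to 26.5 to 34.1 in KO and 44.3 to 46.01 in WT. B cell markers (1 of 5 higher) had a median of -0.17, but their summed signals were higher in KO, at 6.80 to 8.34 against 5.60 to 5.96 in WT. T and NK cell markers (3 of 6 higher) and mast cell and basophil markers (2 of 5 higher) each had a median of -0.01. The part of all these markers in the phosphatase values was not tested, and in a bulk sample more cells of a type and more RNA per cell cannot be told apart.

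The promoters of the members were searched for the motifs below. Those of the immediate early genes were not counted separately, so a motif shared with Dusp1 was not tested. RefSeq promoter windows around the transcription start were available for 9 member genes (GRCm38.p6), all but Dusp4, so Dusp5 is among them. The core of the cAMP response element, TGACGTC on either strand, was found in 1 of the 9, that of Dusp1, against 3.21% of all 32851 windows, and the AP-1 motif TGACTCA in 0 of 9, against 5.20%. Dusp1 holds it at 191 and 143 bases before the start, and the second copy is read on both strands at overlapping positions. The stretches below (minus strand, chr17:26508645-26508674 and chr17:26508597-26508626) show the motif in capitals.
Dusp1 promoter, distal copy: tcctaggccgaTGACGTCtttgcttttggc
Dusp1 promoter, proximal copy: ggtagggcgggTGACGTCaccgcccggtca
These letters describe the windows only, and binding of any factor to them was not measured here.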

How the data were processed

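Per the file headers, the authors' 1-colour arrays were read with Agilent software (Feature Extraction 10.5.1.1), with spatial detrending and background subtraction; the deposited processed signal is an intensity per spot, not scaled between arrays, on mm9 annotation. The deposited series table is on the log2 scale, its centring unstated; each column tracked log2 processed signal (Pearson's r 0.9999 or higher across probes, column medians 4.68). Flags of the scanner software, another deposited kind of value, marked spots well above background.

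Log2 processed signals had the array's 75th percentile subtracted, spots of a probe were averaged, and the 25749 probes flagged well above background on 2 or more arrays were tested per probe with limma 3.58.1 in R 4.3.3 (no trend, no replicate block, Benjamini-Hochberg over all tested probes, threshold 0.05). The prior had 1.99 degrees of freedom. Genes of lists were read by their brightest probe, with symbols updated through RefSeq (GRCm38.p6). Genes other than members were named by rule: the 3 of each list with the smallest p, and the 3 closest patterns. Further marker genes and immediate early genes were named outside this rule. Members and lists were chosen with earlier results of these data known. The procedure was tested on simulated data. Alternatives are given in the closing section.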

Additional observations from a re-analysis of the deposited data

How the results depend on the processing

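With 2 arrays per genotype, the counts of calls depended on the settings. Dusp1 and Dusp2 kept their direction in all 15 alternatives, Dusp6 in 12 and Dusp7 in 11. For Dusp1 and Dusp2, only alternatives that changed the signals or their scaling could have turned it, because their genotypes did not overlap. The main setting called 0 of 25749 probes (6342 at an unadjusted p under 0.05) and 0 members. The intensity trend called 2480 probes, 2 members (Dusp1 and Dusp22 probe 1) and 24 pathway genes; normexp fitted without control spots called 3545 probes, 1 member (Dusp1) and 24 pathway genes, with a member median of 0.0496; the authors' deposited values called 267 probes and 2 pathway genes, and testing only probes well above background on all 4 arrays called 128 and 1. Quantile normalization, median scaling, no filter, outlier spots left out and 1 probe per gene called 0 probes. Leaving out each array in turn called 0 probes, 0 members and 0 pathway genes, with member medians of 0.27 to 0.64.

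The samples share only replicate numbers, which the labels tie to nothing. Same-numbered arrays deviated together with r = 0.03 across probes, and with the replicate block 0 probes, 0 members and 0 pathway genes were called, with 5928 probes at an unadjusted p under 0.05.

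Normexp fitted on all spots shifted the median of all probes by -0.28 (log2) and turned the member median to -0.58. On WT replicate 1 the lowest control spot had a mean signal minus background of -29869, against -0.871 or higher on the other arrays. Members turned to -0.67 (Dusp3), -1.04 (Dusp10), -1.22 (Dusp16 probe 1), -0.48 and -0.78 (Dusp22 probes 1 and 2) and 0.37 (Dusp7). Other genes turned to 0.17 (Mapk7), 0.125 (Mapk13), 0.20 (Map2k4), 0.33 (Map2k1), -0.47 (Map3k12), -0.12 (Rras2), -0.0281 (Spred1), 0.16 (Mapk8ip3), 0.145 (Arrb2), -0.52 (Ssh3), -0.53 (Dusp19), 0.26 (Ppm1a), 0.23 (Ptpn7), -0.28 (Capn2) and -0.34 (Tmem178). Fitted without control spots, Dusp7 was at 0.0751, Dusp10 at -0.17 and Dusp16 probe 1 at -0.26. Dusp6 turned to -0.0124 with quantile normalization and ranged from -0.0897 to 0.0996 with 1 array left out, and Dusp7 turned to 0.0103 on the authors' values and ranged from -0.156 to 0.0140. Pathway list medians with normexp on all spots turned to 0.24 (MAP3K and RAF), 0.03 (RAS and its regulators), 0.33 (kinases activated by MAP kinases), -0.0122 (feedback inhibitors), 0.16 (scaffolds), 0.01 (other dual-specificity phosphatases) and 0.26 (other MAP kinase phosphatases), and that of immediate early genes was 0.98 there and 0.40 to 0.64 with 1 array left out. The cause was not tested. Signals near background limit Dusp4 and Dusp16. The values of Dusp16 probe 1 rest on WT signals not well above background, so its change of sign is not interpreted.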
